A study of Mus musculus with 10 samples.

Results

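IGHV6-3, IGHV6-6, IGHV10-1 and IGHV10-3 are 4 of the 141 V genes named alone in heavy-chain repertoires of peritoneal cavity B-1a cells. A clonotype, which here is a distinct combination of V allele, J allele and CDR3 amino acid sequence, was taken as a member where its V gene field held exactly 1 of these names. This gave 7549 of 195529 clonotypes, of which 3189 used IGHV6-3, 3021 used IGHV6-6, 1332 used IGHV10-1 and 7 used IGHV10-3. The rearranged Igh loci were amplified from genomic DNA of the sorted cells by PCR between framework region 3 of V and the J gene, and the amplicons retained were 120 to 280 bp long. There were 2 libraries from wild-type (WT) C57BL/6 mice and 2 from C57BL/6 mice carrying the Igll1 knockout, written Igll1-/-, all from mice 6 to 8 weeks old. Igll1 encodes lambda5, a component of the surrogate light chain, so cells of the knockout form no pre-BCR, and the comparison asks how V genes are used when that checkpoint is missing. The labels number the samples of a genotype 1 and 2, and a test between them measures only the spread among these 4 libraries. Legends of the study describe them as independent experiments.

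The Igh locus holds many V genes in sequence families, and each B cell joins 1 of them to a D and a J gene on the allele that it expresses. The CDR3 spans that junction, so its outermost residues come from the V and the J gene and its centre from D and from nucleotides added or removed at the joins. The IGHV6 family, historically called J606, is known from antibodies to fructose polymers, and the IGHV10 family is known among antibodies that bind DNA. Productive rearrangements keep the reading frame, whereas unproductive ones cannot make a heavy chain and remain in the genomic DNA of a cell whose other allele succeeded.

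In the RefSeq annotation of GRCm38.p6, Ighv6-3, Ighv6-4, Ighv6-5, Ighv6-6 and Ighv6-7 follow one another with no other V gene between them. Ighv10-1 and Ighv10-3 come next in the same order, after Ighv8-2 and a pseudogene, and are separated from each other by Ighv1 genes and the pseudogene Ighv10-2. The deposited tables name no genome build, so no coordinates are given. Of the other IGHV6 genes, IGHV6-5 had 24 and 21 clonotypes in the WT and 8 and 15 in the Igll1-/- libraries. IGHV6-4 had 1 clonotype in every library and IGHV6-7 had 0 to 3. Within the IGHV6 family, nearly all recovered clonotypes named with a single gene were therefore on IGHV6-3 and IGHV6-6. The paper adapted published primers and added others for some V genes that these missed. How well the primers reached each V gene was not tested.

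The CDR3s below were the clonotypes with most reads of each gene in each library, and they show how the genes differ at the V-encoded end. Each is written in one-letter amino acid code, without the conserved cysteine and tryptophan that flank it, and reads of identical V gene, J gene and CDR3 were added up.
largest of IGHV6-3 in WT replicates 1 and 2 and Igll1-/- replicate 2: TGPYGGFAY
largest of IGHV6-3 in Igll1-/- replicate 2, with the same read count: TMVTWFAY
largest of IGHV6-3 in Igll1-/- replicate 1: TVGTTTY
largest of IGHV6-6 in WT replicate 1: TRRPAWFAY
largest of IGHV6-6 in WT replicate 2: TRFLYYFDY
largest of IGHV6-6 in Igll1-/- replicate 1: TSTVVGYYFDY
largest of IGHV6-6 in Igll1-/- replicate 2: TPNGYAY
largest of IGHV10-1 in WT replicates 1 and 2: VRHYGSSYFDY
largest of IGHV10-1 in Igll1-/- replicate 1: VRHDYAWFAY
largest of IGHV10-1 in Igll1-/- replicate 2: VGAGQMITTPFAY

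All of the IGHV6 sequences began with threonine and all of the IGHV10-1 sequences with valine. TGPYGGFAY, which joins IGHV6-3 to IGHJ3, had 74 reads in each WT library, 1 read in Igll1-/- replicate 1 and 265 reads in Igll1-/- replicate 2. TMVTWFAY, also on IGHJ3, reached 265 reads in Igll1-/- replicate 2 against 2, 0 and 1 reads in WT replicate 1, WT replicate 2 and Igll1-/- replicate 1. The largest IGHV6-6 clonotypes held 45, 114, 131 and 195 reads, in the order of WT replicates 1 and 2 and Igll1-/- replicates 1 and 2, and no CDR3 led in more than 1 library. VRHYGSSYFDY, on IGHV10-1 and IGHJ2, had 95 and 107 reads in the WT libraries, 0 in Igll1-/- replicate 1 and 4 in Igll1-/- replicate 2. VRHDYAWFAY led Igll1-/- replicate 1 with 70 reads and had 18 reads in WT replicate 1 and 0 in the other two. VGAGQMITTPFAY had 183 reads in Igll1-/- replicate 2 and was not among the clonotypes of the other libraries. The largest clonotype made up 2.60% to 9.79% of the reads of its gene for the IGHV6 genes and 7.73% to 13.2% for IGHV10-1, so none of the genes was carried by a single clone. The 10 largest clonotypes together held 11.4% to 37.5% of the IGHV6-3 reads, 12.7% to 27.7% of the IGHV6-6 reads and 22.5% to 46.0% of the IGHV10-1 reads.

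Depth sets the precision of these shares. The libraries held 32386 to 58205 clonotypes and 180593 to 285517 reads, and the 4 members together made up 3.5% to 4.08% of the clonotypes and 1.84% to 2.85% of the reads. IGHV11-2 and IGHV12-3, whose rearrangements are hallmarks of B-1a cells, held 20.6% and 24.4% and 16.5% and 7.43% of the WT reads, and 0.492% and 0.703% and 21.1% and 12.1% of the Igll1-/- reads. Genomic DNA of the Igh locus carries no other marker of the cell type and does not measure Igll1. Both replicates of a genotype differed beyond sampling noise over V genes (chi-square 3463 with 100 degrees of freedom for WT, 3431 with 95 for Igll1-/-), and all 4 libraries were kept apart. No molecular identifiers were used, so the 95% Wilson intervals given here cover counting error only.

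IGHV6-3 and IGHV6-6 each had overlapping shares in both genotypes. IGHV6-3 made up 2.0% (1.88% to 2.12%) and 1.16% (1.07% to 1.26%) of the WT clonotypes and 1.69% (1.56% to 1.84%) and 1.65% (1.55% to 1.76%) of the Igll1-/- clonotypes. The WT libraries lay on either side of the Igll1-/- libraries. IGHV6-6 varied least of the 3, with 1.61% and 1.46% in WT against 1.59% and 1.54% in Igll1-/- libraries, and the Wilson intervals of all 4 overlapped, spanning 1.36% to 1.74%. By mean share of clonotypes, IGHV6-3 and IGHV6-6 ranked 18 and 19 among the 91 V genes tested, which are those reaching 10 clonotypes in 2 or more libraries, and IGHV10-1 ranked 38. IGHV6-3 and IGHV6-6 differed by less than their spread over libraries.

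IGHV10-1 followed the replicate number and not the genotype. It made up 0.395% (0.346% to 0.451%) of the clonotypes in WT replicate 1 and 0.503% (0.432% to 0.586%) in Igll1-/- replicate 1, against 0.877% (0.799% to 0.963%) in WT replicate 2 and 0.883% (0.810% to 0.962%) in Igll1-/- replicate 2. Both libraries numbered 2 stood above both libraries numbered 1, and their intervals did not overlap. No label says what the libraries of a number share, and the part of a shared day or preparation in this difference was not tested.

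None of the 3 genes that could be tested was called different between genotypes in its share of clonotypes. The mean shares were 1.67% ± 0.03 (SD, n = 2) in Igll1-/- against 1.58% ± 0.59 (SD, n = 2) in WT cells for IGHV6-3, 1.56% ± 0.04 against 1.53% ± 0.10 for IGHV6-6 and 0.693% ± 0.269 against 0.636% ± 0.341 for IGHV10-1. The log2 fold changes of Igll1-/- over WT were 0.08 (standard error 0.35) for IGHV6-3, 0.03 (0.26) for IGHV6-6 and 0.13 (0.57) for IGHV10-1. The quasi-likelihood test of edgeR, with p-values adjusted after Benjamini and Hochberg over the 91 V genes, gave adjusted p = 0.927, 0.952 and 0.927. That test called 0% of the 91 V genes, 8 of which had an unadjusted p under 0.05, and DESeq2 called 1, which was no member. The edgeR test also left IGHV11-2 uncalled, with a log2 fold change of -2.12 and adjusted p = 0.122. Its shares were 2.99% and 4.79% of the WT against 0.821% and 0.960% of the Igll1-/- clonotypes. A gene that was not called is thus not shown to be used equally in both genotypes. None of the 3 genes had both Igll1-/- libraries on one side of both WT libraries, whereas 37.4% of the tested V genes did. IGHV10-1 had the largest standard error of the 3 genes.

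In reads, IGHV6-3 held 0.907% and 0.697% of the WT and 0.685% and 1.15% of the Igll1-/- libraries. IGHV6-6 held 0.802% and 0.881% against 0.741% and 0.896%, and IGHV10-1 held 0.332% and 0.651% against 0.413% and 0.810%. The genotypes overlapped for all 3 genes, against a background of 40.7% of tested V genes without overlap in either direction. A share of reads from bulk DNA does not separate more cells of a clone from better amplification of its rearrangement.

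**Figure D1:**
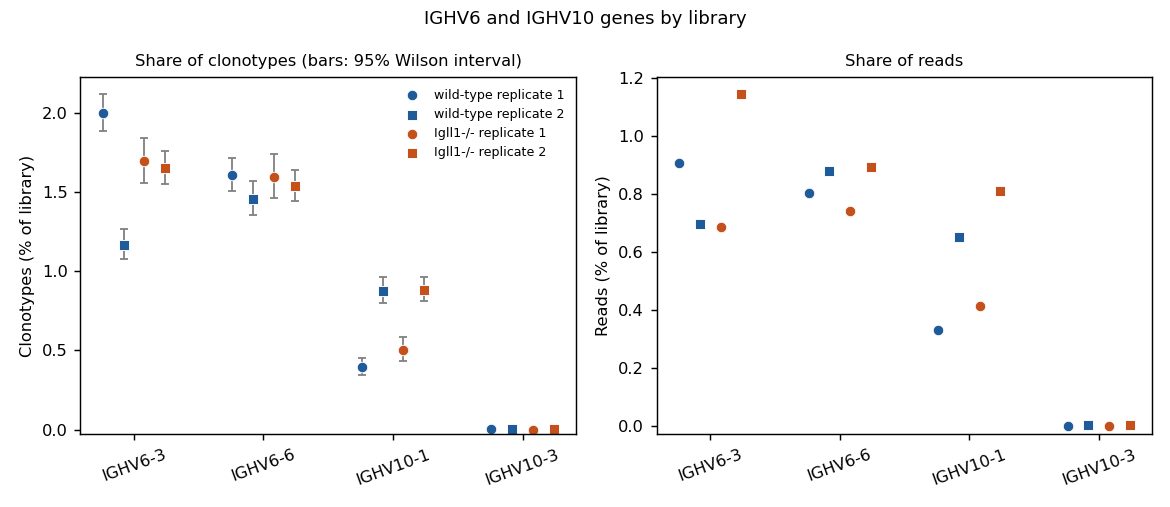
Share of clonotypes (left, with 95% Wilson intervals) and share of reads (right) of the 4 genes in percent of each library, for WT (blue) and Igll1-/- (orange) libraries, with circles for replicate 1 and squares for replicate 2. IGHV6-6 lies between 1.46% and 1.61% of clonotypes in all libraries, IGHV10-1 is higher in both libraries numbered 2, and IGHV10-3 is near 0.

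IGHV10-3 was nearly absent under its own name. It had 1 and 2 clonotypes in the WT libraries and 0 and 4 in the Igll1-/- libraries, each with 1 read. The count of 0 among the 32386 clonotypes of Igll1-/- replicate 1 allows a share of up to 0.00926%, counting 3 clonotypes as the limit. The clonotypes were VRSTMVTTWFAY in WT replicate 1, ARDNYGYDGAWFAY and AGDTYGYWYFDV in WT replicate 2, and AGDMMGYWYFDV, VRDGDYAWFAY, ARTIGYAMDY and VRDFAY in Igll1-/- replicate 2. For AGDTYGYWYFDV and AGDMMGYWYFDV the same CDR3 and J gene had at least 10 times the reads under IGHV12-3 in the same library, and for ARTIGYAMDY under IGHV5-17. This low count does not measure the use of the gene. Between 16 and 54 clonotypes of a library were listed with IGHV10-1 or IGHV10-3 as equal candidates. A further 26, 82, 41 and 115 clonotypes named IGHV10-1 alone included alleles of IGHV10-3 in their allele field, or 11.9%, 18.8%, 25.2% and 22.4% of the IGHV10-1 clonotypes in the order WT replicates 1 and 2 and Igll1-/- replicates 1 and 2. The reads begin in framework region 3, and over this stretch the 2 genes were often not told apart. Between IGHV6-3 and IGHV6-6, 21 to 29 clonotypes per library were ambiguous, which is few beside the 516 to 1101 clonotypes assigned to either gene.

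The V-encoded start of the CDR3 separated the genes. Threonine came first in 90.4% and 83.7% of the productive WT and in 83.7% and 76.6% of the productive Igll1-/- clonotypes of IGHV6-3. For IGHV6-6 it came first in 83.5% and 68.8% against 71.5% and 63.2%. The most frequent opening pair was threonine and glycine in IGHV6-3, at 38.7% to 46.8%, and threonine and arginine in IGHV6-6, at 26.2% to 42.6%. In IGHV10-1, valine came first in only 34.6% and 28.0% of the WT and 32.9% and 22.2% of the Igll1-/- productive clonotypes, and alanine came first in 58.2% to 66.7%. By reads the order turned, and clonotypes with valine first held 72.9%, 64.4%, 75.7% and 62.3% of the productive IGHV10-1 reads, in the order WT replicates 1 and 2 and Igll1-/- replicates 1 and 2.

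Both kinds of IGHV10-1 clonotype differed in other fields of the tables as well. Of those with valine first, 65.7% to 76.5% had more than 1 read and their median identity to the germline V gene was 97.8% in every library. Of those with another residue first, 11% to 33.2% had more than 1 read and the median identity was 92.2% to 95.6%. Whether the identity covers the V-encoded start of the CDR3 is not given in the sources used here. If it does, identity is not independent of the first residue. The clonotypes with valine first made up 0.131% and 0.237% of the WT and 0.157% and 0.186% of the Igll1-/- clonotypes, so their share varied less between replicates than the 0.247% and 0.610% and the 0.321% and 0.651% of those with another residue first. The largest clonotype with valine first held 70 to 183 reads and the largest with another residue first held 12 to 50.

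**Figure D2:**
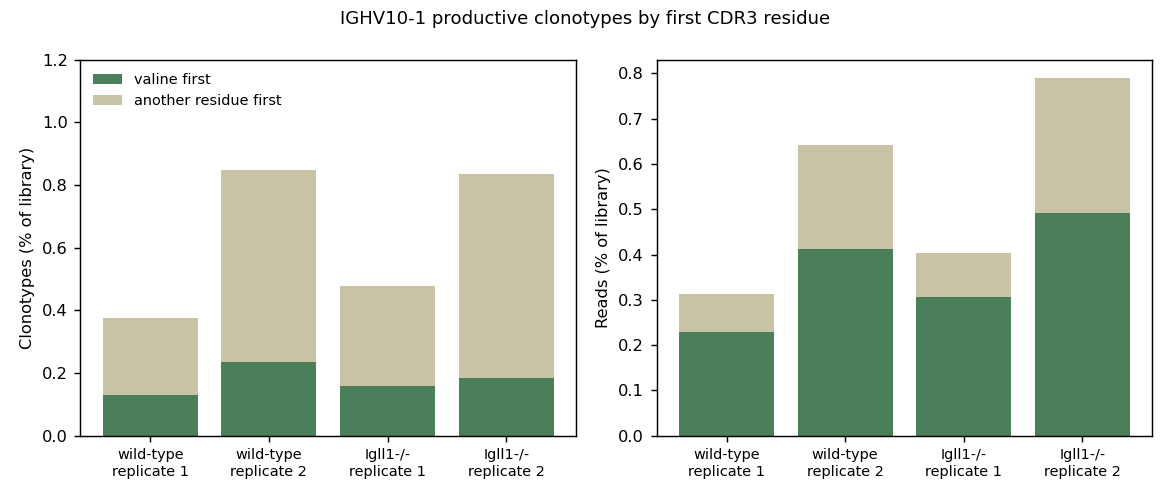
Productive IGHV10-1 clonotypes of each library as percent of all clonotypes (left) and of all reads (right), split by whether the CDR3 begins with valine (green) or with another residue (tan). Valine comes first in the smaller part of the clonotypes, 22.2% to 34.6%, and in the larger part of the reads, 62.3% to 75.7%.

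A CDR3 copy is here a clonotype whose CDR3 and J gene stood in the same library under another single V gene with at least 10 times the reads. Of the IGHV10-1 clonotypes, 38.5% (32.3% to 45.1%) and 44.2% (39.6% to 48.8%) in the WT and 47.2% (39.7% to 54.9%) and 55.4% (51.1% to 59.7%) in the Igll1-/- libraries were CDR3 copies. For IGHV6-3 these shares were 1.73% and 9.83% against 7.12% and 13.9%, and for IGHV6-6 4.18% and 19.0% against 12.8% and 23.6%. Clonotypes of V genes other than the 4 members had 8.29% and 21.6% against 15.9% and 22.7%. IGHV10-1 exceeded these other V genes in 4 of 4 libraries, by 29.2 percentage points ± 4.54 (SD, n = 4), as did 43.7% of the tested V genes with a value in every library. IGHV6-3 lay below them in 4 of 4 libraries, as did 19.5% of those V genes, and IGHV6-6 lay below them in 3 of 4. The exact two-sided permutation test over the signs of 4 differences gave p = 0.13 for IGHV10-1 and IGHV6-3, the smallest it allows, and no such comparison in this report had an adjusted p under 0.22 over its family of 51.

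The V gene that held the larger clonotype of such a CDR3 differed between genotypes, a difference that was not tested. It was most often IGHV12-3 in the WT libraries, with 25 of 84 and 48 of 193 CDR3 copies, and most often IGHV5-17 in the Igll1-/- libraries, with 14 of 77 and 65 of 285. For CDR3 copies of the other V genes it was most often IGHV1-19 in WT, with 483 of 3734 and 1008 of 8086. In the Igll1-/- libraries it was IGHV5-17 for these too, with 298 of 3934 and 1170 of 10106. Copies were rare among IGHV10-1 clonotypes with valine first, at 1.96% to 8.33%, and common among the others, at 56.6% to 70.7%. Since a copy is defined by having fewer reads, the clonotypes with valine first, which have more reads, meet that definition less easily. At any read count, 68.6% to 83.3% of their CDR3s also stood under another V gene. Over all IGHV10-1 clonotypes this share was 89.6% to 95.5%, against 28.9% to 49.7% for other V genes. It was 9.45% to 27.8% for IGHV6-3 and 16.9% to 44.7% for IGHV6-6. CDR3 copies held 18.4% to 29.3% of the IGHV10-1 reads. Both Igll1-/- libraries had a higher copy share of IGHV10-1 than both WT libraries, as did 20.7% of the tested V genes, and the exact permutation test of 2 against 2 libraries gave p = 0.33, the smallest it allows. Whether such clonotypes arose in the cells, in the PCR or in the assignment of the V gene was not tested.

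**Figure D3:**
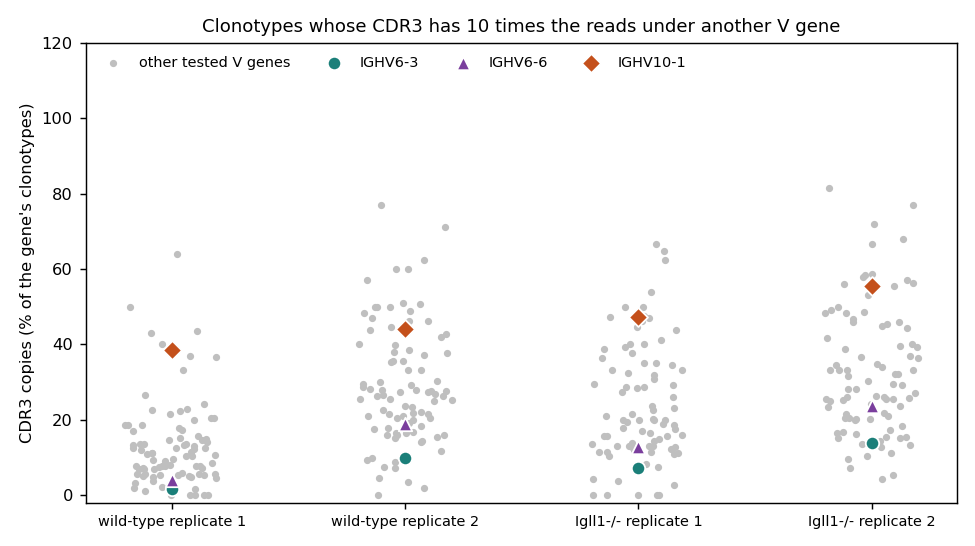
Percent of each V gene's clonotypes that are CDR3 copies, by library, for IGHV6-3 (circle), IGHV6-6 (triangle), IGHV10-1 (diamond) and the other tested V genes (grey dots, spread sideways only for legibility). IGHV10-1 lies at 38.5% to 55.4%, in the upper part of the V genes, and IGHV6-3 at 1.73% to 13.9%, in the lower part.

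Identity to the germline V gene, which the tables give as a percentage, split the families too. Of the IGHV6-3 clonotypes 68.4% to 77.8% and of the IGHV6-6 clonotypes 67.2% to 74.6% matched the germline at every base read, against 0% to 1.23% of the IGHV10-1 clonotypes and 38.9% to 46.3% of those of other V genes. Mean identity of IGHV10-1 was 94.2% and 94.6% in the WT and 94.2% and 94.7% in the Igll1-/- libraries. It differed from that of the other V genes by -4.01 points ± 0.286 (SD, n = 4), and was lower in 4 of 4 libraries, as was that of 34.5% of the tested V genes. IGHV6-3 was higher in 4 of 4 libraries, at 99.3% to 99.5%, as were 46% of the tested V genes, and IGHV6-6 was higher in 1 of 4. Primers anneal in framework region 3, and whether primer bases were trimmed is not given in the sources used here. IGHV10-1 also had fewer clonotypes with a single read than the other V genes in 4 of 4 libraries, at 69.7%, 66.6%, 63.2% and 60.5%, a direction shared by 8.05% of the tested V genes.

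The 3 testable members were productive more often than other V genes in each library. Of the IGHV6-3 clonotypes, 94.9% (93.5% to 96.1%) and 97.4% (95.8% to 98.4%) were productive in WT and 97.4% (95.8% to 98.5%) and 97.1% (95.8% to 98.0%) in Igll1-/- libraries. IGHV6-6 had 96.7% and 97.7% against 95.3% and 95.6%, and IGHV10-1 had 95.4% and 96.6% against 95.1% and 94.7%. Clonotypes of other V genes were productive in 91.9% and 92.5% against 93.4% and 93.5%. All 3 genes lay above the other V genes in 4 of 4 libraries, by 3.92 points ± 0.83 for IGHV6-3, 3.55 ± 1.69 for IGHV6-6 and 2.66 ± 1.36 for IGHV10-1 (SD, n = 4). The exact permutation test over signs gave p = 0.13 for each (adjusted p = 0.22), and 25.3% of the tested V genes did the same. By mean productive share IGHV6-3 ranked 2, IGHV6-6 ranked 7 and IGHV10-1 ranked 13 of the 87 tested V genes with a value in every library.

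Between genotypes, IGHV6-6 and IGHV10-1 had a lower productive share in both Igll1-/- libraries than in both WT libraries, which held for 11.5% of the tested V genes. The differences were -1.70 and -1.07 percentage points, and the exact two-sided permutation test gave p = 0.33 for each, the smallest that 2 against 2 libraries allow. The difference of IGHV6-3 was 1.10 points with overlapping libraries. Over the 57 comparisons of the 3 genes between genotypes, no adjusted p was under 0.792.

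The IGHV6 genes were joined to IGHJ3 more often than other V genes in each library. IGHJ3 was joined to 33.2% and 27.8% of the IGHV6-3 clonotypes in WT and 34.7% and 37.5% in Igll1-/- libraries. For IGHV6-6 these were 38.4% and 25.8% against 37.8% and 42.3%, while clonotypes of other V genes used IGHJ3 in 23.6% and 18.0% against 24.8% and 25.4%. IGHV6-3 exceeded the other V genes in 4 of 4 libraries, by 10.3 points ± 1.19 (SD, n = 4), and IGHV6-6 by 13.1 points ± 3.89 (SD, n = 4). A higher IGHJ3 share in all libraries was found for 17.2% of the tested V genes, and by mean IGHJ3 share IGHV6-6 ranked 3 and IGHV6-3 ranked 6 of 87. The exact permutation test over signs gave p = 0.13 for both genes (adjusted p = 0.22). Counted over reads the excess was larger, at 21.8 points for IGHV6-3 and 25.0 for IGHV6-6, and without CDR3 copies it was 10.4 and 14.9 points.

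The IGHJ3 excess had no single counterpart. In mean difference from other V genes, IGHV6-3 had -0.042 points on IGHJ2 and -4.48 on IGHJ4, and IGHV6-6 had -7.32 and -1.42. IGHJ1, the J gene nearest to D, was lower too. IGHV6-3 joined it in 6.45% and 12.1% of the WT and 8.03% and 8.13% of the Igll1-/- clonotypes, and IGHV6-6 in 9.15% and 16% against 7.75% and 7.61%. Other V genes had 13.8% and 19.5% against 13.3% and 11.2%. The IGHV6 genes were lower in 4 of 4 libraries, with differences of -5.81 points ± 2.06 for IGHV6-3 and -4.35 ± 0.955 for IGHV6-6 (SD, n = 4), but so were 48.3% of the tested V genes. IGHV6-6 and IGHV10-1 had a lower IGHJ1 share in both Igll1-/- than in both WT libraries, as did 26.4% of the tested V genes. For IGHV10-1 the difference was -2.17 points, and it turned to 6.41 without CDR3 copies, 5.19 by reads and 5.30 with at least 10 reads per clonotype. WT replicate 2 was the highest of the 4 libraries in IGHJ1 and the lowest in IGHJ3 for each of the 3 genes and for the other V genes.

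Of the 3 members, IGHV10-1 had the widest difference in J gene use between genotypes. IGHJ2 was joined to 42.2% (35.8% to 48.8%) and 50.1% (45.4% to 54.8%) of its WT clonotypes and to 27.6% (21.3% to 34.9%) and 31.3% (27.5% to 35.5%) of its Igll1-/- clonotypes. IGHJ3 took 29.4% (23.7% to 35.7%) and 14.9% (11.8% to 18.5%) in WT against 39.3% (32.1% to 46.9%) and 39.5% (35.4% to 43.8%) in Igll1-/- libraries. The mean differences of Igll1-/- from WT were -16.7 points for IGHJ2 and 17.3 points for IGHJ3. In both cases the genotypes did not overlap, and the exact permutation test gave p = 0.33 (adjusted p = 0.792), the smallest it allows. Without WT replicate 2 the IGHJ3 difference was 10.02 points and without WT replicate 1 it was 24.5, and by reads the differences were -30.7 points for IGHJ2 and 29.2 for IGHJ3. Other V genes had 44.5% and 44.4% on IGHJ2 in WT against 43.8% and 43.4% in Igll1-/- libraries, slightly lower in both Igll1-/- libraries as well. On IGHJ3 they too were higher in both Igll1-/- libraries, at 24.8% and 25.4% against 23.6% and 18.0%.

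The IGHJ2 difference was in the same direction for IGHV6-3, IGHV6-6 and IGHV10-1, and none of the 7 IGHV10-3 clonotypes was on IGHJ2. IGHV6-3 had 45.1% and 46.0% on IGHJ2 in WT against 43.1% and 41.7% in Igll1-/- libraries, and IGHV6-6 had 35.8% and 45.2% against 32.6% and 33.2%. All 3 genes thus had both Igll1-/- libraries below both WT libraries, which 35.6% of the tested V genes did. For IGHJ3, IGHV6-3 and IGHV10-1 had both Igll1-/- libraries above both WT libraries, which 31% of the tested V genes did. The IGHV10-1 values were as large where CDR3 copies were left out, at -19.2 points for IGHJ2 and 20.4 for IGHJ3. Among the IGHV10-1 clonotypes with valine first, 41.7% and 49.2% of the WT and 17.6% and 25.0% of the Igll1-/- clonotypes were on IGHJ2, from 51 to 118 clonotypes per library.

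**Figure D4:**
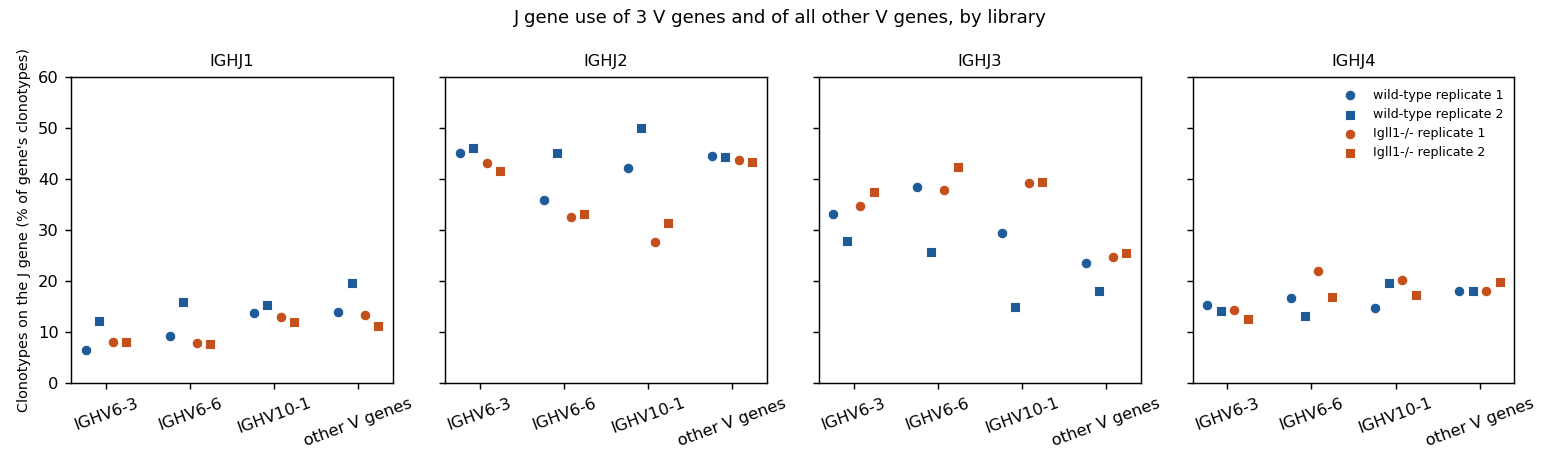
Percent of clonotypes joined to IGHJ1, IGHJ2, IGHJ3 and IGHJ4 for IGHV6-3, IGHV6-6, IGHV10-1 and all other V genes, for WT (blue) and Igll1-/- (orange) libraries, with circles for replicate 1 and squares for replicate 2. On IGHJ3 the IGHV6 genes lie above the other V genes in each library, and on IGHJ2 both Igll1-/- values of IGHV10-1, 27.6% and 31.3%, lie below its WT values.

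IGHD1-1 was the most frequent D gene of the 3 genes in every library, at 20.9% to 31.3% of clonotypes, and the IGHD2 family as a whole held 30.7% to 47.0%. No D gene was named for 2.19% to 4.14% of the IGHV6-3 and 2.46% to 3.39% of the IGHV6-6 clonotypes. This was lower than for other V genes, at 4.98% to 6.31%, in 4 of 4 libraries for both genes, as it was for 24.1% of the tested V genes. For IGHV10-1 the share was 3.20% to 8.72% and lay on both sides of the other V genes.

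CDR3s of IGHV6-3 were shorter than those of other V genes in each library. The mean length over productive clonotypes was 9.96 and 9.82 residues in WT and 9.99 and 9.70 in Igll1-/- libraries, against 10.9 and 10.6 and 10.6 and 10.4 for other V genes. IGHV6-6 had means of 10.5 and 10.3 against 10.6 and 9.99, and IGHV10-1 had 10.5 and 11 against 10.6 and 10.4. The difference from the other V genes was -0.764 residues ± 0.139 for IGHV6-3 and -0.312 ± 0.194 for IGHV6-6 (SD, n = 4), each lower in 4 of 4 libraries, which 42.5% of the tested V genes also did. IGHV6-6 CDR3s were longer than those of IGHV6-3 in 4 of 4 libraries, by 0.452 residues ± 0.12 (SD, n = 4, exact permutation p = 0.13, adjusted p = 0.336 over 51 comparisons between members). Between genotypes no member was without overlap in mean length, against 48.3% of the tested V genes.

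In IGHV10-1 the commonest CDR3 length was 12 residues in both WT libraries, with 19.7% and 24.4% of productive clonotypes, and 10 residues in both Igll1-/- libraries, with 24.5% and 16.2%. In the Igll1-/- libraries 12 residues made up 10.3% and 14.6%. In Igll1-/- replicate 2 both lengths were thus close, with 79 clonotypes of 10 residues and 71 of 12. These lengths were chosen for description after the values were seen. Of the 12-residue clonotypes, 28 of 41 and 64 of 103 in WT and 11 of 16 and 47 of 71 in Igll1-/- libraries were CDR3 copies, and 23, 41, 6 and 10 of them were copies from IGHV12-3. Without copies, 12 residues made up 10.4% and 16.4% against 6.02% and 11.3%, so the genotypes overlapped. For 10 residues the shares without copies were 20% and 20.2% against 30.1% and 22.1%, so WT replicate 2 and Igll1-/- replicate 2 lay close. How many tested V genes separate the genotypes at a single length was not computed, so these shares are a description only. Without copies, 10 residues were thus more frequent than 12 in both WT and both Igll1-/- libraries.

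**Figure D5:**
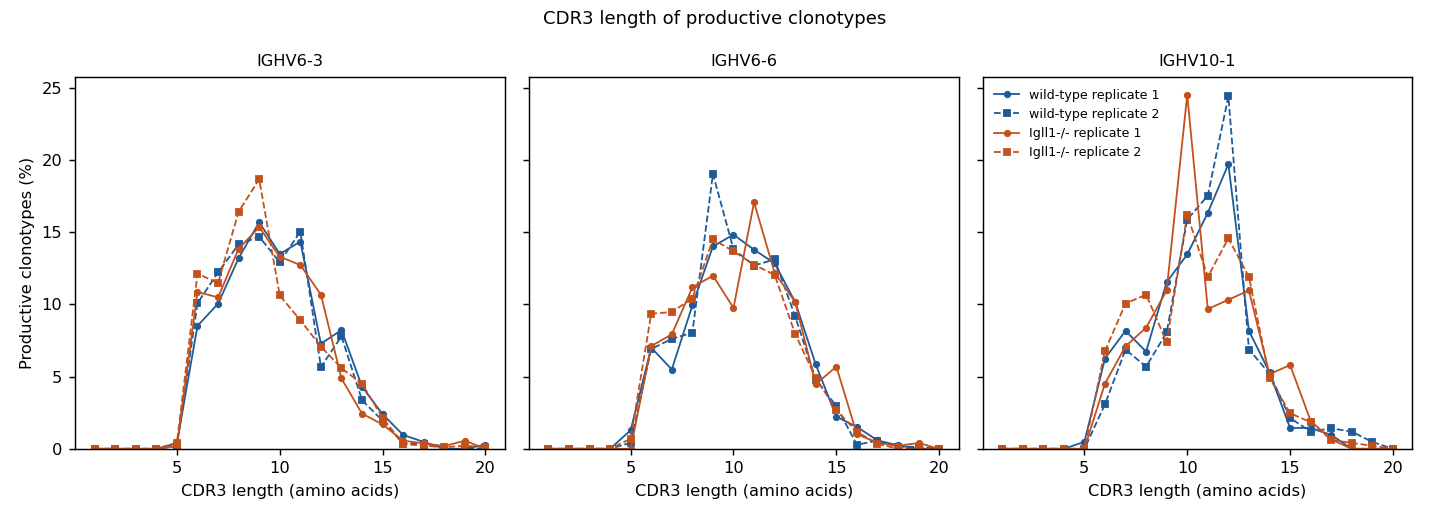
CDR3 length in amino acids (horizontal) against the percent of productive clonotypes (vertical) for IGHV6-3, IGHV6-6 and IGHV10-1, with 1 line per library, blue for WT and orange for Igll1-/-, solid for replicate 1 and dashed for replicate 2. With CDR3 copies included, as drawn, IGHV10-1 peaks at 12 residues in both WT libraries and at 10 residues in both Igll1-/- libraries. In Igll1-/- replicate 2 both lengths are close, with 16.2% at 10 residues and 14.6% at 12. Without copies, 10 residues are more frequent than 12 in both genotypes.

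Arginine is a residue often met in the CDR3s of DNA-binding antibodies, and it was counted after position 2 so that the V-encoded arginine of the opening pair was left out. It occurred in 15.9% and 15.4% of the productive IGHV10-1 CDR3s in WT and in 14.2% and 12.1% in Igll1-/- libraries. IGHV6-3 had 16.1% and 15.8% against 21.3% and 15.1%, IGHV6-6 had 28.2% and 18.1% against 28.5% and 21.9%, and other V genes had 23.5% and 19.9% against 21.5% and 18.3%. IGHV10-1 differed from the other V genes by -6.41 points ± 1.42 and IGHV6-3 by -3.72 ± 2.97 (SD, n = 4), both lower in 4 of 4 libraries, as did 39.1% of the tested V genes. IGHV6-6 exceeded IGHV6-3 in 4 of 4 libraries, by 7.06 points ± 4.0 (SD, n = 4, exact permutation p = 0.13, adjusted p = 0.336). IGHV10-1 had a lower arginine share in both Igll1-/- libraries than in both WT libraries, as did 32.2% of the tested V genes, by -2.48 points, and without CDR3 copies the difference was 1.15 points in the other direction.

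Clonotypes found in all 4 libraries were few. Over productive clonotypes with reads added up per V gene, J gene and CDR3, 28 of 2551 IGHV6-3 clonotypes, 15 of 2485 IGHV6-6 clonotypes and 2 of 1075 IGHV10-1 clonotypes were found in all 4, or 1.10%, 0.604% and 0.186%, against 1.18% of the 115297 clonotypes of other V genes. These held 14.2% of the reads of IGHV6-3, 2.94% of those of IGHV6-6 and 1.09% of those of IGHV10-1, against 34.9% for other V genes. These recurrent CDR3s show what the libraries have in common.
recurrent in IGHV6-3 with IGHJ3: TGPYGGFAY
recurrent in IGHV6-3 with IGHJ2: TGGNFDY
recurrent in IGHV6-3 with IGHJ3: TGWFAY
recurrent in IGHV6-6 with IGHJ3: TRRDSWFAY
recurrent in IGHV6-6 with IGHJ2: ARHYYGSSYYFDY
recurrent in IGHV6-6 with IGHJ3: RGGSWFAY
recurrent in IGHV10-1 with IGHJ2: ARHYYGSSYYFDY
recurrent in IGHV10-1 with IGHJ3: ARGGFAY

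The IGHV6-3 sequences were led by the gene itself among the 12 to 17 V genes that listed them, and Igll1-/- replicate 2 carried most of their reads. TGGNFDY had 5 and 1 reads in the WT libraries and 3 and 159 in the Igll1-/- libraries, and TGWFAY had 3 and 11 against 1 and 125. TRRDSWFAY of IGHV6-6 had 3 and 29 reads against 33 and 1, so its reads did not follow genotype. ARHYYGSSYYFDY was led by another V gene. It was listed under 63 V genes, with 9710 reads in the 4 libraries under IGHV5-17 but 25 under IGHV6-6 and 35 under IGHV10-1. ARGGFAY was listed under 61 V genes, with 6655 reads under IGHV1-47 and 20 under IGHV10-1. Both recurrent CDR3s of IGHV10-1 thus had far more reads under another V gene, and no IGHV10-1 CDR3 with valine first was found in all libraries. Whether reads of 1 library reached another during preparation or sequencing was not tested.

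Pairs of libraries shared productive clonotypes to different extents. WT replicates 1 and 2 had 111 IGHV6-3 clonotypes in common, 10.9% and 19.8% of their lists, and Igll1-/- replicates 1 and 2 had 95, or 17.8% and 10.3%. WT replicate 1 and Igll1-/- replicate 2 had most in common, with 174 for IGHV6-3 (17.1% and 18.8%) and 139 for IGHV6-6 (16.4% and 16.7%). The same pair also shared most clonotypes of the other V genes, with 7654, or 18.7% and 18.9%. For IGHV10-1 the WT pair shared 27 clonotypes, 13.2% and 6.87% of the lists, and the Igll1-/- pair 21, 14.7% and 4.99%. Pairs of unlike genotype shared 9 to 19 IGHV10-1 clonotypes, and the 10 shared by WT replicate 1 and Igll1-/- replicate 1 were 4.88% and 6.99% of those lists. The lists differ in length and depth, and these shares were not tested.

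Other V genes with a similar pattern over the 4 libraries were sought by the root mean square difference of log2 percent of clonotypes after each gene's own mean was removed, among 88 tested V genes. The nearest to IGHV6-6 were IGHV1-77 and IGHV1-82, at 0.046 and 0.064 on the log2 scale, both flat like IGHV6-6 itself. The nearest to IGHV6-3 were IGHV1-72 and IGHV1-37, at 0.143 and 0.149. IGHV10-1 had no V gene as near, with IGHV1-21-1 at 0.299 and IGHV1S45 at 0.301, which were also higher in both libraries numbered 2 than in both numbered 1. With 4 libraries these likenesses are a description only.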

How the data were processed

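The authors used IMGT/High-V-QUEST to name the genes of each Igh read, and the deposited table of a library gives a read count per clonotype and the percent identity to the germline V gene. The version and the trimming are not given in the sources used here. The 6 Igk libraries were not used. Clonotypes were counted per V gene, and those listing several V genes, 14.3% to 21.3% of a library, stayed in the total only. V genes reaching 10 clonotypes in 2 or more libraries were compared by edgeR 4.0.16 in R 4.3.3 (quasi-likelihood test on genotype, all clonotypes as library size, Benjamini-Hochberg adjustment over 91 V genes). The edgeR script alone was run on simulated counts, with the same set spread for every V gene. That run does not measure its power on these data. Other measures were compared with exact two-sided permutation tests in Python 3.11.15, over libraries between genotypes and over signs of within-library differences, after which p-values were adjusted within each family. Genes named were the 4 members, IGHV11-2, IGHV12-3, the 2 V genes nearest in pattern to each member, the largest clonotype per gene and library, and the 3 clonotypes with most reads found in all libraries, printed up to 14 residues. Members and lists were chosen with earlier results of these data known. Alternatives were another count unit, read minima of 2 and 10, productive clonotypes only, merging of CDR3s within 1 residue, other library sizes (TMM, single V genes), the first V gene of several, no filter, DESeq2 1.42.0, a replicate block and leaving out each library, and, chosen after seeing the data, leaving out CDR3 copies.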

Additional observations from a re-analysis of the deposited data

How the results depend on the processing

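No alternative changed the call of a member, which was never past the threshold. Of 422 recomputed values for 41 results, 366 kept their direction or their side of the threshold, but not always their size. Part of this tally was fixed in advance. With equal numbers of libraries, the replicate block leaves the mean difference of a share or length as it was. Leaving out a library cannot reverse a difference without overlap or one in the same direction in every library. With at least 10 reads the log2 fold changes were 0.44, 0.56 and 0.52 for IGHV6-3, IGHV6-6 and IGHV10-1. By reads the IGHJ1 share of IGHV6-3 minus other V genes, which include IGHV11-2 and IGHV12-3, was -24.8 points. With 2 libraries per genotype, small differences changed sign easily and the causes were not tested. All differences are Igll1-/- minus wild-type unless stated.

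The log2 fold change was -0.019 for IGHV6-3 with at least 2 reads per clonotype, -0.015 for IGHV6-6 with productive clonotypes only, -0.022 for it without CDR3 copies and -0.041 by reads, and -0.11 for IGHV10-1 without CDR3 copies. V genes called were 3 with at least 10 reads, 1 without CDR3 copies, 1 by reads and 1 by DESeq2. With at least 10 reads, IGHV6-3 differed by 0.641 residues in CDR3 length, -12.0 points in arginine share, 4.68 on IGHJ1, 0.790 on IGHJ2 and -0.530 on IGHJ3, IGHV6-6 by 0.132 points in reads and 0.0452 residues, and IGHV10-1 by 6.61 points in productive share, 1.41 in arginine share and 5.30 on IGHJ1. With at least 2 reads, IGHV6-6 differed by 0.00994 points in reads, 0.584 in productive share and 0.183 residues, and IGHV10-1 by 0.133 residues. With near-identical clonotypes merged, IGHV6-3 differed by 0.0972 residues. Weighted by reads, the arginine share of IGHV6-3 differed by -3.17 points, the length of IGHV6-6 by 4.36e-05 residues, and IGHV10-1 by 1.08 points in productive share and 5.19 on IGHJ1. Without CDR3 copies, IGHV10-1 differed by 1.15 points in arginine share and 6.41 on IGHJ1. IGHV10-1 minus other V genes was 2.06 points in arginine share with at least 10 reads, and 0.400 and 0.380 residues in length with at least 2 and 10.

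Leaving out each library in turn gave log2 fold changes of -0.26 to 0.52 for IGHV6-3, -0.037 to 0.10 for IGHV6-6 and -0.34 to 0.81 for IGHV10-1, and 0 to 4 called V genes, 3 without Igll1-/- replicate 1 and 4 without Igll1-/- replicate 2. The differences then ranged, for IGHV6-3, from -0.117 to 0.345 points in reads, -0.149 to 2.35 in productive share, -0.184 to 0.0987 residues, -0.786 to 5.43 points in arginine share and -3.99 to 1.63 on IGHJ1. For IGHV6-6 they ranged from -0.101 to 0.0538 points in reads, -0.377 to 0.202 residues and -2.99 to 7.11 points in arginine share. For IGHV10-1 they ranged from -0.0783 to 0.318 points in reads and -0.443 to 0.0552 residues, and against other V genes from -1.56 to 0.0439 points on IGHJ1 and -0.119 to 0.126 residues. No other result changed direction without 1 library, which for differences without overlap or alike in every library was fixed in advance.

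With the replicate block, the log2 fold changes of IGHV6-3, IGHV6-6 and IGHV10-1 were 0.13, 0.03 and 0.18 and 0 V genes were called. Libraries of the same number correlated in their deviations at 0.324, but no label pairs them. For IGHV10-3, only the fit without a filter gave a value, a log2 fold change of 0.44 (standard error 1.33).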
